A study of Mus musculus with 32 samples.

Results

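Epiblast-like cells (EpiLCs) made in culture were compared with the tissue they are meant to resemble, the mouse epiblast at embryonic day 5.5. The comparison used the 2 arrays of EpiLCs after 48 h of culture and the 2 arrays of E5.5 epiblast, 4 of the 32 Affymetrix expression arrays of the series. Differences were taken as EpiLC mean minus epiblast mean for autosomal genes named in the array annotation. Of 17404 such genes among 18193 in all, 14878 were bright enough in at least 1 group to be tested. The 48 h EpiLCs are labelled male, C57BL/6, and carry the fluorescent reporters Blimp1-mVenus and stella-ECFP. The epiblast is labelled C57BL/6, of unknown sex, with no reporter named. So the groups also differ in the reporter transgenes and possibly in sex, which cannot be told apart from culture here. The labels do not say how many embryos gave each epiblast sample, how the epiblast was separated from its neighbours, or whether the EpiLC replicates came from 1 cell line. The series as a whole studied how germ cells can be induced by transcription factors, with 16 groups of 2 arrays. These 4 arrays are among 10 taken over from an earlier series. Per the labels, RNA was extracted with a column kit, and cDNA from about 20000 cells was amplified by global PCR before labelling. The 2 arrays of a group are described as biological duplicates, but no label names separate cultures or litters. The p-values therefore measure the spread between arrays, which may be technical in part.

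The epiblast is the layer of pluripotent cells that gives rise to the whole embryo. At E5.5 it is a cup of epithelial cells, lined on the outside by the visceral endoderm and capped by the extraembryonic ectoderm, and these neighbours pattern it with BMP, Nodal, WNT and their antagonists. EpiLCs are derived from naive embryonic stem cells (ESCs) by exposure to activin A and basic FGF, and they pass through a formative state from which primordial germ cells can be induced. In culture the neighbouring tissues are missing and the cells depend on a defined medium. Levels below are log2 intensities after quantile normalization, and a difference of 1 is a 2-fold change. A gene is said to have risen or fallen, or to be called, when the limma model gave a Benjamini-Hochberg adjusted p under 0.05 and the difference was at least 2-fold. Groups of 2 arrays are small, so the spread was estimated over all 16 groups.

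Before the comparison, both groups were checked against their labels. All 9 epiblast markers were well expressed in both groups. The lowest was Nanog at 8.56 on an EpiLC array and the highest Dnmt3b at 13.39 on an epiblast array, against a limit of 4.05 used to set aside dim genes. Across the 15497 genes tested on any chromosome, replicate arrays correlated at r = 0.9679 for EpiLCs and 0.9764 for epiblast. Arrays of different groups correlated at 0.9545 to 0.9666. The signal of the 5′ Gapdh control probe set minus that of the 3′ set, a sign of RNA length, was -0.72 and -1.02 in EpiLCs and -0.72 and -0.07 in epiblast. For the Actb control it was further below 0, at -2.63 and -3.32 in EpiLCs and -3.33 and -2.78 in epiblast. Some transcripts of neighbouring tissues were higher on the epiblast arrays than on the EpiLC arrays. On 1 of its 2 probe sets Elf5, a defining factor of the extraembryonic ectoderm, read 8.6 and 8.87 on the epiblast arrays and 0.22 and 2.51 on the EpiLC arrays. Ttr, transthyretin of the visceral endoderm, read 9.82 and 6.96 on epiblast replicates 1 and 2 and 4.39 and 5.0 in EpiLCs. The full marker lists are given with the genes that fell.

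Of the 14878 autosomal genes, 499 rose in EpiLCs relative to epiblast (3.35%) and 205 fell (1.38%), 4.73% in all. At least 4-fold changes numbered 98 upward and 43 downward, and at least 8-fold changes 23 and 17. The median difference of all tested genes was 0.05. In 44.5% of all tested genes the arrays of the groups did not overlap (25.7% higher and 18.8% lower in EpiLCs), so non-overlap alone says little with 2 arrays a group. In 70 of the 499 and 53 of the 205 the mean of the lower group was under the limit for dim genes, so the size of their difference is uncertain. Of the genes named below, this holds upward for Nupr1, Atf3, Cdkn2b, Icam1, Mymx, Tnnc2, Calcoco2 and Sox1, among others. Downward it holds for Srgn, Lhx1, Evx1, Cdx2, Gsc, Rspo3, Sp8, Id4, Apoa1 and Cubn, among others. Leaving out epiblast replicate 2 reduced the counts to 332 higher and 127 lower, the largest effect of any single array. Of the called genes, 196 higher and 64 lower kept their call without each of the 4 arrays in turn.

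The changes were unevenly spread over gene lists. Among genes induced by amino acid shortage, 17 of 28 tested rose and 0 fell, with a median difference of 1.56. Immediate early genes gave 9 of 20 higher and 0 lower, cholesterol synthesis genes 7 of 18 higher and 0 lower, and naive pluripotency genes 6 of 17 higher and 0 lower. On the other side, 11 of 22 visceral endoderm markers, 6 of 22 primitive streak genes, 5 of 17 primed epiblast genes and 4 of 14 BMP response genes fell and 0 of each rose. Ribosomal protein genes gave 1 call among 33 and subunits of oxidative phosphorylation none among 63 in limma, with medians of 0.0 and 0.12. These list counts and those given below stand beside shares of 3.35% higher and 1.38% lower over all tested genes. The lists overlap in places, since Id4 is counted as a primed and as a BMP gene and Foxa2, Eomes and Cdx2 also stand on marker lists of extraembryonic tissue.

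**Figure D1:**
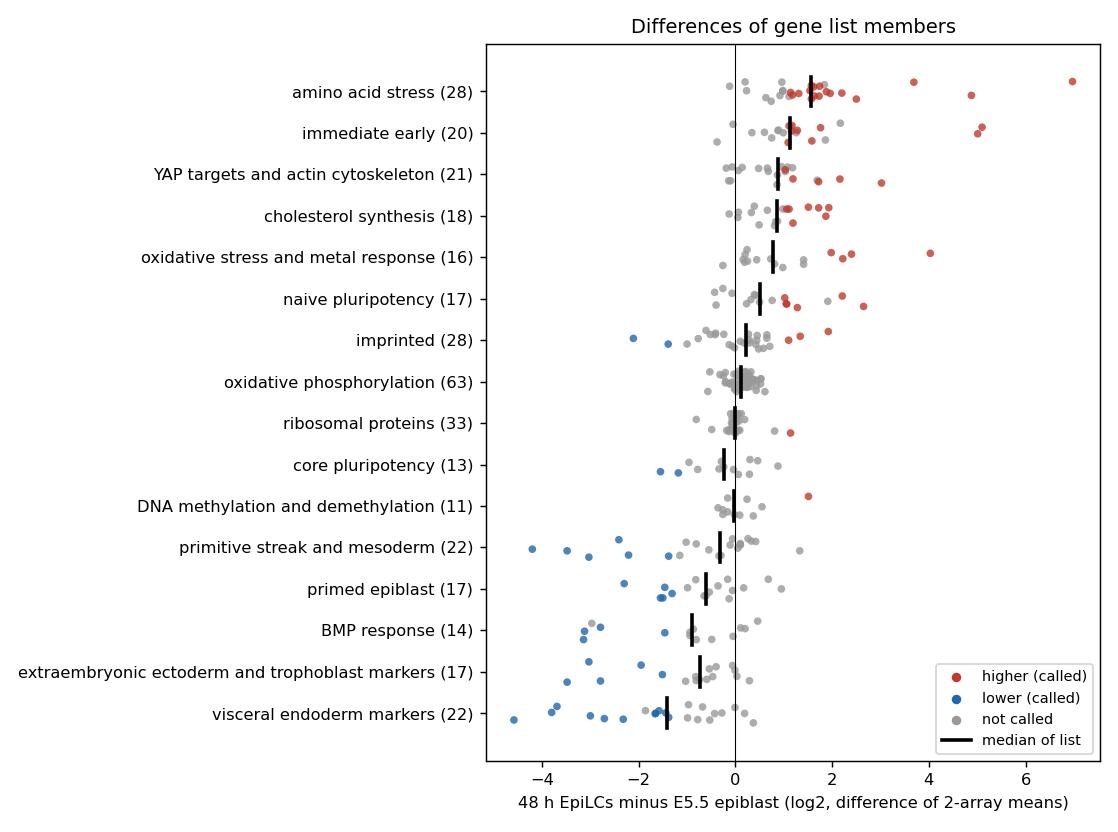
Differences of the tested members of 16 gene lists. Each point is 1 gene, the x axis is the mean of the 2 EpiLC arrays minus the mean of the 2 epiblast arrays (log2), red and blue points are called higher and lower, grey points are not called, black bars are list medians and the number tested is in parentheses. The amino acid stress list has its median at 1.56 and the visceral endoderm markers at -1.41.

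The gene with the largest fitted rise was Nupr1, a small stress-induced chromatin protein. Its level was 10.56 and 11.38 on the EpiLC arrays and 4.18 and 3.82 on the epiblast arrays, the latter close to the limit for dim genes. The difference was 6.97 (SE 0.33, limma adjusted p = 1.27e-10), with an uncertain size because the epiblast mean lies under that limit. Its second probe set gave 6.56. Chac1, which degrades glutathione and is a target of the transcription factor ATF4, read 11.17 and 10.97 in EpiLCs and 5.92 and 6.45 in epiblast. It differed by 4.88 (SE 0.20, limma adjusted p = 2.6e-11). Trib3, a pseudokinase induced by ATF4, read 10.92 and 10.91 against 7.38 and 7.07, and it differed by 3.69 (SE 0.28). In all of these the groups were separated by far more than the gap between replicates.

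The pathway behind this list is the integrated stress response. Kinases that sense uncharged tRNA or other stress slow translation in general while letting the mRNA of ATF4 be translated, and ATF4 then switches on genes for amino acid import and synthesis. Among the transcription factors themselves, Atf4 mRNA differed by 0.98 (SE 0.16, limma adjusted p = 0.000475), just short of the 2-fold limit. Ddit3, which codes for the factor CHOP, rose by 2.20 (SE 0.25). Atf5 differed by 0.96 and Cebpg by -0.12, neither called. Of the amino acid transporters, Slc7a1, the cationic amino acid carrier, rose by 2.50 (SE 0.22), Slc7a5 by 1.57, Slc1a4 by 1.31 and Slc3a2 by 1.14, while Slc1a5 differed by 0.63 and Slc7a11, the cystine carrier, by 0.92 and were not called. The call of Slc7a1 held without each array. That of Slc3a2 was lost without EpiLC replicate 2, that of Slc7a5 without EpiLC replicate 1 or epiblast replicate 2, and that of Slc1a4 without EpiLC replicate 2 or epiblast replicate 1.

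Enzymes of amino acid synthesis followed the same direction. Asns, asparagine synthetase, read 12.20 and 12.43 in EpiLCs and 10.70 and 10.80 in epiblast and rose by 1.57 (SE 0.14). Psph, the last enzyme of serine synthesis, rose by 1.74, Aldh18a1 of proline synthesis by 1.63, Cth of cysteine synthesis by 1.62 and Pck2, the mitochondrial PEP carboxykinase, by 1.73, and these 4 calls also held without each array. The earlier serine enzymes Phgdh and Psat1 differed by 0.74 and 0.98 and stayed under the 2-fold limit. The number of list members called ranged from 13 to 19 when single arrays were left out, and 11 of the 17 calls were kept in all 4 cases. The unfolded protein list, which shares the stress kinase logic but reads out the endoplasmic reticulum, had 1 call among 18 genes, Herpud1 at 2.51 (SE 0.32), and a median of -0.11. Its chaperone gene Hspa5 read 11.86 and 12.47 in EpiLCs and 12.25 and 12.48 in epiblast. The heat shock list had 1 call among 16, the small heat shock protein gene Hspb1 at 2.45, which was lost without EpiLC replicate 2 or epiblast replicate 2.

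Promoters of these genes are shown because several carry the same short element. ATF4 pairs with C/EBP-family proteins on a composite element, for which the letters TGATGNAA were searched on both strands of the 250 bases before each RefSeq gene start (build GRCm38.p6). The printed stretches lie for Nupr1 at chr7:126625471-126625720, for Chac1 at chr2:119350992-119351241, for Atf3 at chr1:191183334-191183583, for Asns at chr6:7693210-7693459, for Vldlr at chr19:27216795-27216852 and for Pck2 at chr14:55540138-55540195. Chac1, Vldlr and Pck2 are on the plus strand and the others on the minus strand. Each is written 5′ to 3′ in the direction of transcription, with matches in capitals. The last 2 are shown as windows of 58 bases around the match, and the other 4 as the whole 250 bases.
Nupr1: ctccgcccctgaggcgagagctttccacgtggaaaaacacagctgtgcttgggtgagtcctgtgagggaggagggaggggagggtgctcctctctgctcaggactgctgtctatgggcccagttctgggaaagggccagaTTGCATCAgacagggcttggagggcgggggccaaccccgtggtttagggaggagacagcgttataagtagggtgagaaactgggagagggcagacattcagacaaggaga
Chac1: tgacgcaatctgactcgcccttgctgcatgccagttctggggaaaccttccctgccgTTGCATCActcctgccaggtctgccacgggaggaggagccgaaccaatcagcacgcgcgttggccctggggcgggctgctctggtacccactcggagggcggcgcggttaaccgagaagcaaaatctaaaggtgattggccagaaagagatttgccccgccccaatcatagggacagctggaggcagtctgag
Atf3: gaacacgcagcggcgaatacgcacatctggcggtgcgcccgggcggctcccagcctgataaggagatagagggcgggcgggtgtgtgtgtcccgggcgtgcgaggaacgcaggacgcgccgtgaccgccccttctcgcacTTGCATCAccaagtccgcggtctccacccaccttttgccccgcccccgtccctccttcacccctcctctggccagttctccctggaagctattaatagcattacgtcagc
Asns: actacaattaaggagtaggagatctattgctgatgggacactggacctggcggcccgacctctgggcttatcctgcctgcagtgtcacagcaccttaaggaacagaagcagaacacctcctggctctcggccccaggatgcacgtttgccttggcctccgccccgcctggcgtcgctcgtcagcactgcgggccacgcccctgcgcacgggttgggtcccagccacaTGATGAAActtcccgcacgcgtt
Vldlr: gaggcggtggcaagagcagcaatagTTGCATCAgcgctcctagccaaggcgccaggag
Pck2: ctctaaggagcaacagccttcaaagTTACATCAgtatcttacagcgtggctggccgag
Nupr1, Chac1, Atf3 and Vldlr share the same 8 letters TTGCATCA, which is the reverse complement of a match. Among genes of the amino acid stress list with a promoter sequence, 6 of 24 (25%) held the element. They were Nupr1, Chac1, Asns, Vldlr, Pck2 and Slc7a11, of which Slc7a11 was not called. Atf3 is not on this list but on that of immediate early genes. The share of 25% was set beside those of other groups of genes. The element was in 316 of 11892 tested autosomal genes (2.66%), 25 of the 396 genes that rose (6.31%) and 2 of the 167 that fell (1.2%). The amino acid stress list was drawn up from known ATF4 targets, so its share is a description. A match is not evidence of binding. Of 3 other motifs searched the same way, with partial overlaps between motifs left in, TGACGTCA was in 2.02% of promoters of genes that rose against 2.74% of all, TCACNCCAC in 1.26% against 1.35%, and TGACNNNGC in 16.7% against 13.8%.

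Immediate early genes are switched on within minutes by growth factors, serum or stress, without new protein synthesis. Egr1, the zinc finger factor downstream of ERK signalling, read 10.26 and 10.06 in EpiLCs and 5.15 and 4.98 in epiblast, and differed by 5.10 (SE 0.29, limma adjusted p = 1.22e-09). Atf3, which answers both mitogens and ATF4, read 9.16 and 8.88 against 3.88 and 4.14 and differed by 5.01 (SE 0.36). Dusp1, the phosphatase that turns off MAP kinases, rose by 1.17 and Klf6 by 1.16. Jun, Junb, Ier2, Zfp36 and Gadd45g rose by 1.09 to 1.76 but lost their call in 1 or more of the 4 sets of fewer arrays. The count of called members fell from 9 to 5 without epiblast replicate 2. Fos differed by 1.86 (SE 0.93, limma adjusted p = 0.248) and Fosb by 2.17 and were not called, and Myc differed by -0.38. Feedback genes of FGF and ERK signalling were not called. Spry2, Spry4, Dusp6 and Etv5 differed by -0.05, -0.44, -0.15 and -0.06. Dusp6 read 9.93 and 7.29 on the 2 EpiLC arrays, so its replicates were far apart. Cebpd, a C/EBP factor induced by stress and STAT3, read 8.07 and 9.38 against 5.41 and 3.67 and rose by 4.19 (SE 0.58), although a second, dimmer probe set gave 0.27.

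**Figure D2:**
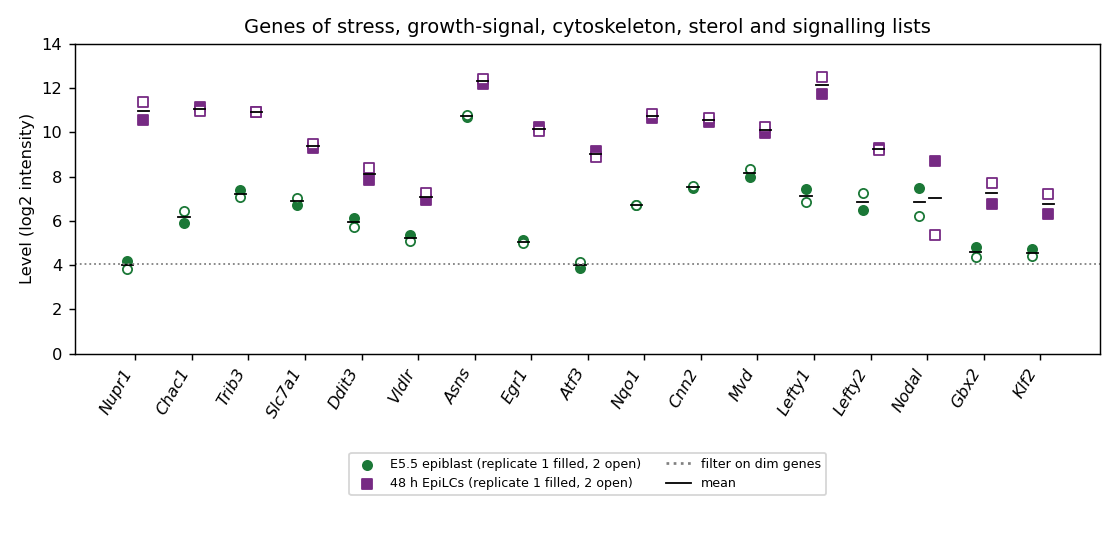
Levels of 17 genes on the 4 arrays, mostly genes higher in EpiLCs. The y axis is log2 intensity, circles are epiblast and squares EpiLC arrays (replicate 1 filled, replicate 2 open), short bars are means of 2 arrays and the dotted line is the limit for dim genes at 4.05. In Nupr1, Chac1, Egr1, Atf3 and Lefty1 the groups lie far apart, and in Nodal the EpiLC arrays lie on either side of the epiblast arrays.

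Genes of redox defence rose in part. Nqo1, a quinone reductase and classical target of the factor NRF2, read 10.66 and 10.84 in EpiLCs and 6.72 and 6.70 in epiblast, a difference of 4.03 (SE 0.33, limma adjusted p = 1.73e-07). Cbr3, a carbonyl reductase, rose by 2.22 (SE 0.34) and Txnip, the thioredoxin inhibitor that also senses glucose, by 1.98 (SE 0.20). Gpx2 rose by 2.40 but not without EpiLC replicate 2 or epiblast replicate 2. Other NRF2 targets were not called: Hmox1 differed by 0.25, Gclc by 0.16, Gclm by 0.81 and Txnrd1 by 0.19. The metallothionein genes Mt1 and Mt2 both differed by 1.41, with adjusted p of 0.112 and 0.0855 in limma. In all, 4 of 16 genes of the oxidative and metal list rose, with a median of 0.77.

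Cholesterol synthesis genes rose by moderate amounts with close replicates. Mvd, which makes isopentenyl diphosphate, read 9.98 and 10.23 in EpiLCs and 7.99 and 8.36 in epiblast and rose by 1.93 (SE 0.18, limma adjusted p = 1.01e-06). Pmvk, the enzyme before it, rose by 1.87 (SE 0.21), Lss, lanosterol synthase, by 1.51 (SE 0.14), Mvk by 1.19 and Cyp51 by 1.11, and all 5 calls held without each array. Tm7sf2 and Stard4 were also called, at 1.72 and 1.06, but not in each set of fewer arrays. The early enzyme Hmgcs1 differed by 0.39, Sqle by 0.06, Idi1 by 0.05 and the regulator Srebf2 by 0.49, with 0 calls among them. The median of the list was 0.85, and with the mean of all probe sets of a gene in place of the brightest, 4 of its 18 genes were called. Of the fatty acid synthesis list, 1 of 14 genes rose, the acetate-activating enzyme gene Acss2 at 1.07.

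Cytoskeletal genes also rose. Cnn2, calponin 2, an actin-binding protein, read 10.46 and 10.67 in EpiLCs and 7.5 and 7.59 in epiblast and differed by 3.02 (SE 0.15, limma adjusted p = 1.82e-10). Myl9, a myosin light chain of contractile fibres, rose by 2.16 (SE 0.35). Ccn1, a secreted YAP target, rose by 1.72, a call lost without EpiLC replicate 1 or epiblast replicate 2, and Ankrd1, another YAP target, differed by 0.06. Of this list 5 of 21 genes rose, with a median of 0.87, and 2 rose without epiblast replicate 2. Itga5, the fibronectin receptor subunit, rose by 1.23, again not without EpiLC replicate 2 or epiblast replicate 2.

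Nodal signalling genes split. Nodal drives mesendoderm and keeps the epiblast pluripotent, and Lefty1 and Lefty2 are its secreted inhibitors and direct targets. Lefty1 read 11.75 and 12.51 in EpiLCs and 7.43 and 6.84 in epiblast, a difference of 5.0 (SE 0.26, limma adjusted p = 2.11e-10). Lefty2 read 9.31 and 9.19 against 6.47 and 7.26 and rose by 2.39 (SE 0.29). Both calls held without each array. Nodal itself read 8.71 and 5.35 in EpiLCs and 7.51 and 6.21 in epiblast, so its replicates spanned the difference of 0.17 (SE 1.02). A second, dim probe set gave -1.57. The coreceptor gene Tdgf1 differed by 0.29, the effector gene Foxh1 by -0.01, and Smad2 and Smad3 by -0.23 and 0.16, none called. Fst, follistatin, which binds activin, fell by 1.71 (SE 0.41), a call lost without EpiLC replicate 2 or epiblast replicate 2. Cer1, a Nodal antagonist of the anterior visceral endoderm, read between 1.81 and 4.63 on the 4 arrays and was not called. The list median of -0.18 became 0.18 without EpiLC replicate 2 and 0.03 without epiblast replicate 1, so the list as a whole had no settled direction.

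Genes at the core of pluripotency were close in the groups. Pou5f1 read 12.66 and 12.82 in EpiLCs and 12.61 and 12.94 in epiblast, a difference of -0.04 (SE 0.14). Nanog differed by -0.34 (SE 0.45) and Utf1 by 0.30 (SE 0.18), and were not called. Sox2 differed by -0.78 (SE 0.20, limma adjusted p = 0.0147), under the 2-fold limit. Sall4, a zinc finger factor that binds with OCT4, fell by 1.18 (SE 0.20), and its dimmer probe set gave -4.39. Foxd3 fell by 1.55, a call lost without any single one of the 4 arrays. Of 13 core genes tested 2 fell and 0 rose, and without EpiLC replicate 1, epiblast replicate 1 or epiblast replicate 2 only 1 fell. Without EpiLC replicate 1, 1 core gene, Dppa2, named after its value was seen, was also called higher.

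Naive genes mark the ground state of ESCs and are turned down on the way to the epiblast. Gbx2, a homeobox factor that can sustain ESC self-renewal, read 6.78 and 7.72 in EpiLCs and 4.84 and 4.36 in epiblast and rose by 2.65 (SE 0.33, limma adjusted p = 3.31e-05). Klf2, a Kruppel-like factor of the naive network, read 6.31 and 7.23 against 4.71 and 4.42 and rose by 2.21 (SE 0.30). These were the 2 naive calls that held without each array. Dppa3 (stella) rose by 1.28, a call lost without EpiLC replicate 2, and Zfp42, Fgf4 and Tfcp2l1 by 1.06, 1.05 and 1.02, each lost in 2 of the 4 sets of fewer arrays. Klf4, Esrrb and Tbx3, other members of the network, differed by -0.43, -0.40 and -0.26 with no call, and Esrrb read 5.91 and 8.82 on the EpiLC arrays. Without EpiLC replicate 2, 3 naive genes rose and 1 fell.

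Primed epiblast genes that were called were lower in EpiLCs. Fgf5, the classical marker of the postimplantation epiblast, read 9.76 and 9.24 in EpiLCs and 10.11 and 10.19 in epiblast, a difference of -0.65 (SE 0.41, limma adjusted p = 0.388). Pou3f1 differed by -0.13. Fgf8, a patterning growth factor, read 4.09 and 4.18 against 6.41 and 6.46 and fell by 2.30 (SE 0.46). Otx2, a factor of anterior identity and of the formative transition, read 8.89 and 8.99 against 10.18 and 10.69 and fell by 1.50 (SE 0.39, limma adjusted p = 0.0195), a call that held only without epiblast replicate 1 among the 4 sets of fewer arrays. Cdh2, N-cadherin, fell by 1.31, except without epiblast replicate 1, and Id4 by 1.46, a call lost without any single array. Leaving out any 1 of the 4 arrays reduced the 5 lower primed genes to 2, and without EpiLC replicate 2 the list also had 1 higher gene, Etv4, named after its value was seen.

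The DNA methyltransferases of the implantation stage were not called on the probe sets used. Dnmt3b read 13.01 and 12.86 in EpiLCs and 13.19 and 13.39 in epiblast, Dnmt3a 11.50 and 11.65 against 11.65 and 11.83, and Dnmt1 11.29 and 11.30 against 11.33 and 11.30. The differences were -0.36 (SE 0.61), -0.16 (SE 0.27) and -0.02 (SE 0.13), within or near their errors, although a dimmer probe set of Dnmt3b gave -2.58. With the mean of its probe sets Dnmt3b differed by -1.47 (limma adjusted p = 0.0371) and was called lower. Dnmt3l differed by 0.55 (SE 0.26) and Tet1 by 0.37 (SE 0.36). Apobec2, a member of the cytidine deaminase family, was the 1 called gene of 11 and rose by 1.51. It was not called with the mean of its probe sets.

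Of 14 BMP response genes 4 fell: Id1, Id3, Id4 (given with the primed genes) and the ligand gene Bmp4. Id1 and Id3 code for inhibitors of helix-loop-helix factors and are direct targets of BMP-activated SMADs. Id1 read 7.02 and 7.24 in EpiLCs and 10.30 and 10.20 in epiblast, a difference of -3.12 (SE 0.19, limma adjusted p = 2.81e-09). Id3 read 7.5 and 9.36 against 11.49 and 11.64 and differed by -3.14 (SE 0.36), with EpiLC replicates nearly 2 log2 units apart. Bmp4, the ligand, which at this stage is made mainly by the extraembryonic ectoderm, read 5.08 and 5.53 against 8.23 and 7.95 and differed by -2.79 (SE 0.27). Id2 read 3.86 and 1.36 against 4.02 and 7.14 and was not called. Msx1, another target, differed by -0.87 (SE 0.19, limma adjusted p = 0.00673), under the 2-fold limit, and Bambi by 0.46. The list median was -0.90, and the count of 4 genes ranged from 3 to 6 when single arrays were left out.

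Genes of the primitive streak and of early patterning fell as well. Eomes, a T-box factor of mesendoderm and of trophoblast, read 7.43 and 6.38 in EpiLCs and 10.13 and 10.64 in epiblast and differed by -3.48 (SE 0.34, limma adjusted p = 1.66e-06). Lhx1, a LIM homeobox factor of the anterior streak and visceral endoderm, read 1.83 and 1.46 against 5.78 and 5.91 and differed by -4.20 (SE 0.68), although a second probe set that was dim in both groups gave -0.24. Evx1, a homeobox factor of the posterior streak, fell by 2.41 (SE 0.24). The calls of these 3 held without each array. Cdx2 and Gsc differed by -3.03 and -2.21, calls lost without any single array. Mixl1, Mesp1 and Tbx6 differed by -1.02, -0.55 and 0.26 and were not called. The 6 called genes became 3 without EpiLC replicate 2, epiblast replicate 1 or epiblast replicate 2.

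Related signals gave fewer calls. Cyp26a1, the enzyme that clears retinoic acid, read 4.82 and 4.75 in EpiLCs and 8.93 and 8.46 in epiblast and differed by -3.91 (SE 0.33, limma adjusted p = 3.09e-07). Aldh1a2, which makes retinoic acid, rose by 1.24 (SE 0.36), a call lost without any single one of the 4 arrays. These were the 2 calls among 12 genes of the retinoic acid list, 1 in each direction. Of 14 WNT response genes 3 fell. Rspo3, a WNT agonist, differed by -2.91 (SE 0.45) and held without each array, while Sp8 and Dkk1 at -1.92 and -1.65 did not, and without EpiLC replicate 2 or epiblast replicate 1 only 1 gene of the list fell. The WNT target Axin2 differed by -0.49 (SE 0.51) and was not called. Of the Notch list 3 of 15 genes rose and 1 fell, among them the ligand gene Dll1 at 1.51 (SE 0.27), whose call held without each array. Without epiblast replicate 2 only 1 gene of the Notch list rose.

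**Figure D3:**
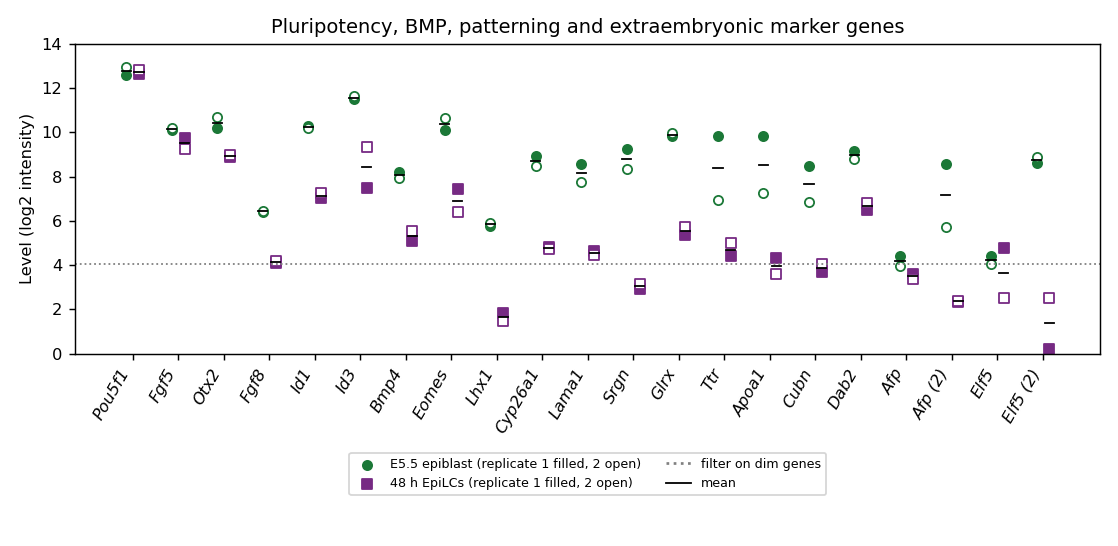
Levels of 19 genes on the 4 arrays: pluripotency, BMP, patterning and extraembryonic marker genes. The y axis is log2 intensity, circles are epiblast and squares EpiLC arrays (replicate 1 filled, replicate 2 open), short bars are means of 2 arrays, the dotted line is the limit for dim genes at 4.05, and (2) marks another probe set of Afp and Elf5. Id1, Eomes, Glrx and the other probe set of Elf5 have close epiblast replicates, whereas Ttr, Apoa1, Cubn and the other probe set of Afp are higher on epiblast replicate 1 than on replicate 2.

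Markers of the visceral endoderm were higher on the epiblast arrays, and unequally so on the 2 of them. Ttr differed by -3.69 (SE 0.53, limma adjusted p = 0.000145). Apoa1, an apolipoprotein, read 9.82 and 7.27 on epiblast replicates 1 and 2 and 4.32 and 3.60 in EpiLCs. Cubn, the endocytic receptor cubilin, read 8.49 and 6.86 against 3.70 and 4.05. These 3 markers were far brighter on epiblast replicate 1 than on replicate 2, and both epiblast arrays lay above the EpiLC arrays. Afp, the fetal plasma protein of visceral endoderm, was not called on the probe set used, which read between 3.38 and 4.41 on the 4 arrays, but the probe set with its highest group mean read 8.59 and 5.72 in epiblast and 2.32 and 2.39 in EpiLCs. Of the 22 tested markers 12 were over 1 log2 unit higher on epiblast replicate 1 than on replicate 2, against 4.67% of all genes. Summed over the list on the linear scale, the level was 7273 and 2661 on epiblast replicates 1 and 2 and 1509 and 2455 in EpiLCs. Apoe was the brightest marker on all 4 arrays and so has the largest share of each sum. It read 9.84 and 9.81 in epiblast and 9.43 and 10.61 in EpiLCs, and so was highest on EpiLC replicate 2. No marker was at 0 on the probe sets used.

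The 11 called visceral endoderm markers became 5 without epiblast replicate 1, 5 without EpiLC replicate 2 and 13 without epiblast replicate 2. Their median difference was -1.41 with all arrays and -0.68 without epiblast replicate 1. Dab2, an endocytic adaptor, had close epiblast replicates at 9.15 and 8.81 against 6.49 and 6.83 and differed by -2.32 (SE 0.22). Of the 205 genes that fell, 12 had the same gap of over 1 between the epiblast replicates, against 4.67% of all genes. Among these were the called markers Ttr, Apoa1, Apoc2, Cubn, Amn, Apom, Sox7 and Spink1. A wide gap between replicates makes a call less likely, and Dab2 fell without it. The count therefore does not gauge visceral endoderm RNA among the genes that fell. The part of visceral endoderm RNA in the other differences was not tested. In bulk RNA, fewer cells of a type and less RNA per cell cannot be told apart.

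Markers of the extraembryonic ectoderm and trophoblast gave 5 lower and 0 higher of 17, with a median of -0.74. The called genes were Eomes, Cdx2, Bmp4, Tfap2c and Ddah1. Other probe sets of Tfap2c gave -0.01 and -1.33, and with the mean of probe sets 4 of 16 tested markers were lower. Elf5 was not called on the probe set with its highest mean over all arrays, at 4.41 and 4.03 in epiblast and 4.76 and 2.51 in EpiLCs. Its other probe set, given above at 8.6 and 8.87 in epiblast, differed by -7.37 (limma adjusted p = 4.41e-06), a size that is uncertain because both EpiLC values lie under the limit for dim genes. Here both epiblast arrays were alike and far above the EpiLC arrays. Hand1 and Gata3 were between 2.46 and 4.37 on all 4 arrays, and Tpbpa of the later placenta was at most 4.64. With the probe set of the highest group mean for every gene, a choice made after the values were seen, 6 of these 17 markers and 12 of the 22 visceral endoderm markers were lower.

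The summed linear level of the extraembryonic ectoderm list, without that Elf5 probe set, was 4110 and 4471 in epiblast and 1775 and 2776 in EpiLCs, with no marker at 0. Without EpiLC replicate 1, 3 markers were lower and 1 higher. Bmp4, Eomes and Cdx2, counted above as BMP and streak genes, are also genes of this tissue, and its part in their lower level in EpiLCs was not tested. Ddah1, a hydrolase of methylated arginine, differed by -1.95 (SE 0.26). Fibroblast markers gave 1 higher and 0 lower of 15, and markers of blood and endothelium 0 of 13 in either direction.

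Some of the largest falls were in genes outside the lists of patterning and tissue genes. Srgn, the core protein of the secretory granule proteoglycan serglycin, read 2.91 and 3.16 in EpiLCs and 9.23 and 8.34 in epiblast. Its difference of -5.75 (SE 0.29, limma adjusted p = 2.11e-10) was the largest fall on the probe sets used. The size and rank are uncertain, because both EpiLC values lie under the limit for dim genes. Glrx, glutaredoxin, a small thiol reductase, read 5.36 and 5.74 against 9.85 and 9.96 and differed by -4.35 (SE 0.29), with -3.78 from its second probe set. Plce1, a phospholipase C, differed by -3.66 (SE 0.34), Mogat2, an enzyme of triglyceride synthesis, by -3.28 (SE 0.34), and Ctsh, the lysosomal protease cathepsin H, by -3.55 (SE 0.48). Srgn, Glrx, Plce1 and Mogat2 had epiblast replicates within 1 unit of each other, whereas Ctsh read 8.66 and 6.81.

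The basement membrane list changed in a few genes. Lama1, the laminin chain of the early embryonic basement membrane, read 4.63 and 4.46 in EpiLCs and 8.59 and 7.75 in epiblast and differed by -3.63 (SE 0.36, limma adjusted p = 2.29e-06). Its partner chains Lamb1 and Lamc1 differed by 0.15 and -0.17 and were not called. Col4a2 and Nid1 differed by -2.12 and -1.62, calls lost without EpiLC replicate 2 or epiblast replicate 1, and Nid1 was at 0.14 with the mean of its probe sets. Of 27 genes 3 fell and 1, Itga5, rose, and without EpiLC replicate 2 or epiblast replicate 1 only 1 fell. Among epithelial genes 3 of 30 rose, with the tight junction gene Cldn4 at 1.51 (SE 0.21) and plakoglobin (Jup) at 1.14 (SE 0.17), and 1 fell, Podxl, the sialomucin of the apical surface, at -1.45 (SE 0.25). E-cadherin (Cdh1) read 12.56 and 12.34 in EpiLCs and 12.29 and 12.31 in epiblast.

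Of 28 cell cycle genes 2 rose, and 4 did without EpiLC replicate 2. Over all tested autosomal genes 3.35% rose and 1.38% fell, shares to be set beside this count and the small counts that follow. Cdkn2b, the Cdk inhibitor p15, read 6.62 and 6.61 in EpiLCs and 2.03 and 2.96 in epiblast, below the limit for dim genes, and rose by 4.12 (SE 0.34, limma adjusted p = 1.78e-07). Rb1 rose by 1.48, but a dimmer probe set gave -0.63. Of p53 targets 2 of 18 rose and of glycolysis and hypoxia genes 2 of 28 fell, none of which held without each array. Imprinted genes gave 3 higher and 2 lower of 28, and 1 and 3 without EpiLC replicate 2. Phlda2, a placental growth regulator, rose by 1.92 (SE 0.19), and the growth factor gene Igf2 differed by -2.11 (SE 0.37), while its other, dim probe set gave 0.66. Meg3, Mest and Peg3 differed by 0.10, 0.18 and 0.45 with no call. Of early germ cell genes 3 of 11 rose (Prdm1, Dppa3 and Ifitm3, by 1.39, 1.28 and 1.37) and 1 fell (Tfap2c, by 1.51), and none of these calls held without each array. Other probe sets of Tfap2c gave -0.01 and -1.33, and with the mean of probe sets 0 genes of this list fell. The EpiLC reporters are named for Prdm1 (Blimp1) and Dppa3 (stella), and the part of the reporters in these values was not tested.

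The same question, culture against embryo, can be put at a second stage of the series without reusing these arrays. Day 6 cytokine-induced PGC-like cells (Ck-PGCLCs; male, C57BL/6, Blimp1-mVenus, stella-ECFP) were set against PGCs at E9.5 (unknown sex, C57BL/6, stella-EGFP), 2 arrays each. There 577 genes rose in culture (3.88%) and 503 fell (3.38%), 7.26% in all. Of the 499 genes higher in EpiLCs, 117 were also higher at this later stage, which is 23.4% of the 499 and 20.3% of the 577, and 20 were lower. Of the 205 lower genes, 44 were also lower, 21.5% of the 205 and 8.75% of the 503, and 11 were higher. The contrasts share no array, but each gene's spread estimate is common to both.

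Nupr1, Icam1, Lefty1, Lefty2 and Id1 were called in the same direction at both stages. Nupr1 differed by 6.17 in the germ cell contrast, and the difference between the contrasts, 0.80 (SE 0.47, limma adjusted p = 0.392), was not called. Icam1, a leukocyte adhesion molecule, rose by 3.40 (SE 0.26) in EpiLCs and 3.46 in germ cells. Id1 differed by -3.12 and -2.69. Lefty1 gave 5.0 and 3.32 and Lefty2 2.39 and 3.78, and these differences in size were called. Other genes had unequal contrasts. Egr1 gave 5.10 and 0.39, Srgn -5.75 and 0.13, Glrx -4.35 and 1.0, and Eomes -3.48 and 1.66, and in each the difference of the contrasts was called. Over all autosomal genes this test called 517 genes upward (3.47%) and 336 downward (2.26%), 5.73% together. Among them were 186 of the 499 and 59 of the 205. The test contains the EpiLC minus epiblast difference by which the 499 and 205 were chosen, so these 2 shares are partly built in.

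**Figure D4:**
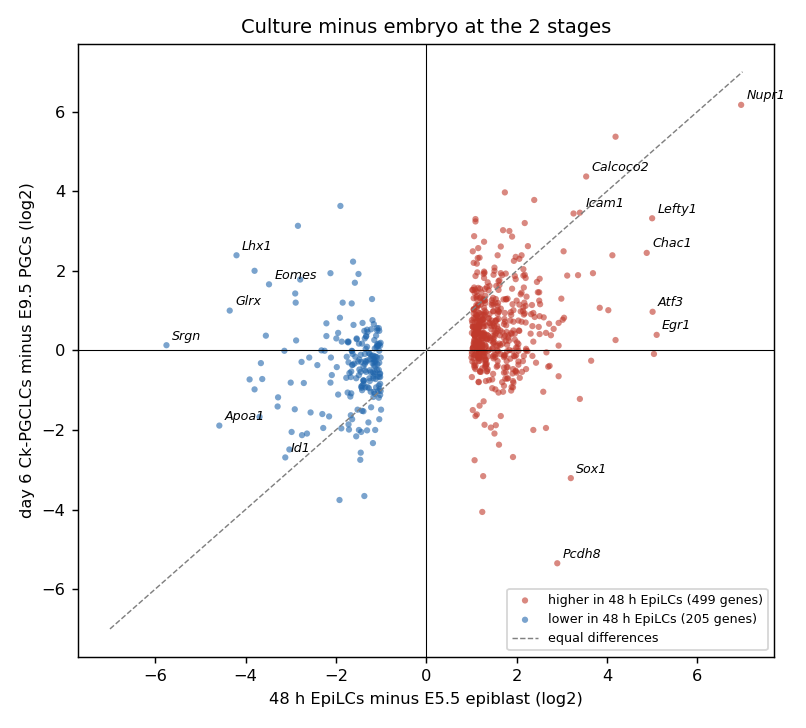
Differences of culture minus embryo at both stages for the 704 genes called in EpiLCs against epiblast. The x axis is 48 h EpiLCs minus E5.5 epiblast and the y axis day 6 Ck-PGCLCs minus E9.5 PGCs (log2), points are genes, and the dashed line marks equal differences. Nupr1 and Icam1 lie near the dashed line, while Egr1 and Srgn lie near 0 on the y axis.

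Levels on all 32 arrays place these genes among the other cultured cells, as a description. In 62 genes (0.417%) each of the 28 cultured arrays was above all 4 embryo arrays, and 29 of them were among the 499. In 48 genes (0.323%) each cultured array was below all 4, and 10 of them were among the 205. Both splits include the EpiLC and epiblast arrays that gave the calls, so these overlaps are partly built in. Nupr1 was at least 5.65 in culture and at most 4.18 in the embryo, Chac1 at least 7.41 and at most 6.45, and Lefty1 at least 10.45 and at most 7.43. Apoa1 and Cubn were lower on each of the 28 cultured arrays than on the embryo arrays. Egr1 did not follow that split. It read 4.12 and 3.72 in ESCs and 7.35 and 7.40 in PGCs. In the 36 h EpiLCs it read 10.65 and 10.39, near the 48 h EpiLCs.

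**Figure D5:**
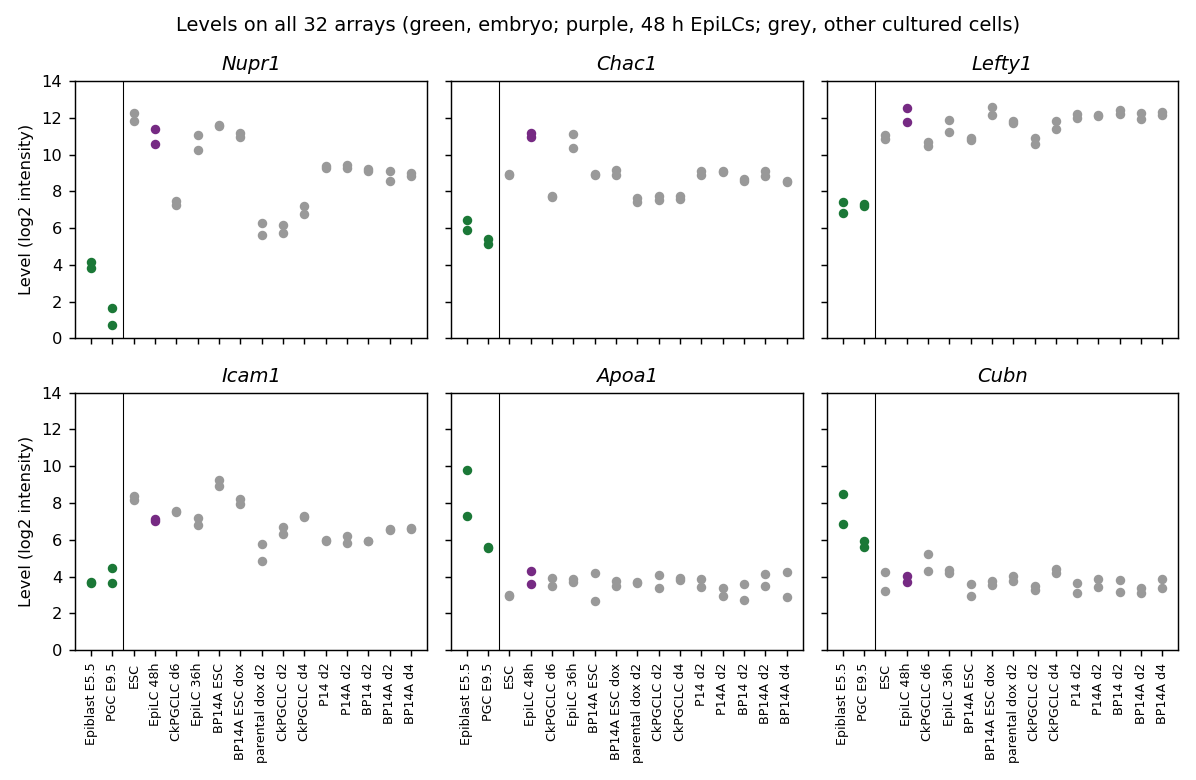
Levels of 6 genes on all 32 arrays, 2 per group. The y axis is log2 intensity, green points are embryo groups, purple points 48 h EpiLCs and grey points the other cultured groups, with group names abbreviated as in the series (d, day; dox, doxycycline; B, Blimp1; P14, Prdm14; A, Tfap2c). Nupr1, Chac1, Lefty1 and Icam1 are higher on each cultured array than on the 4 embryo arrays, and Apoa1 and Cubn are lower.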

How the data were processed

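Gene expression was measured on 32 one-colour Affymetrix mouse arrays. The authors' deposited values are log2 intensities, 1 per probe set and array, from 0 to 14.59. The sources used here do not name the software. Of 45101 probe sets 64 controls were left out, and the rest were quantile normalized, since array medians ran from 4.62 to 4.78. This scaling cannot show a change in the total RNA of a cell. Genes were read from their brightest probe set over all arrays, among those with 1 gene symbol in GEO's platform annotation (34945 probe sets, 34741 matched to RefSeq gene identifiers); 9183 of 18193 genes had 1 probe set. Genes whose group means were all under 4.05, the 40th percentile over all values, were not tested. All 32 arrays entered 1 limma model (3.58.1, R 4.3.3) with 16 group means and 16 residual degrees of freedom. P-values were Benjamini-Hochberg adjusted over 15497 genes, and calls needed an adjusted p under 0.05 and 2-fold. Precision is limited by 2 arrays a group.

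Named genes were the 15 largest rises and falls among called, non-overlapping genes with a plain symbol, up to 3 called members of each list in each direction and a fixed set; other list members are given beside their list. The list genes, comparison and tests were chosen with earlier results of these data known. Promoters came from RefSeq (GRCm38.p6). Alternatives were other scalings, probe set rules, filters, thresholds, empirical Bayes options, a replicate block, fewer arrays and each array left out. The probe set with the highest group mean was added after the values were seen.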

Additional observations from a re-analysis of the deposited data

Results flagged for a closer look

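The difference between the culture-minus-embryo contrasts of EpiLCs and of day 6 Ck-PGCLCs was tested gene by gene. It was called upward in 517 genes and downward in 336. The 5 largest upward differences were Hbb-y at 10.33, Pcdh8 at 8.25, Hba-x at 7.31, Sox1 at 6.41 and Aldh1a2 at 5.30, and the globin genes differed through the germ cell contrast, at -10.01 for Hbb-y and -7.46 for Hba-x. The 5 largest downward differences were Lhx1 at -6.59, Tinagl1 at -5.97, Fabp3 at -5.94, Srgn at -5.88 and Lcp1 at -5.52. Fabp3 was 5.68 in the germ cell contrast and -0.26 in EpiLCs.

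Among the 30 genes with the largest changes in EpiLCs, other such differences were upward for Egr1 (4.71), Tnnc2 (4.62), Atf3 (4.05), Cebpd (3.92), Shcbp1l (3.90), Nqo1 (3.03), Chac1 (2.43), Trib3 (1.75), Cdkn2b (1.74) and Lefty1 (1.68). They were downward for Glrx (-5.35), Eomes (-5.14), Ctsh (-3.92), Plce1 (-3.34), Cyp26a1 (-3.17), Id3 (-3.13), Lama1 (-2.91), Cubn (-2.82), Mogat2 (-2.10) and Sema5a (-1.88). For Chac1, Trib3, Cdkn2b, Lefty1, Mogat2 and Sema5a the germ cell contrast had the same sign and was called, so the contrasts differed in size. The 30 genes were chosen by the EpiLC minus epiblast difference, which this test contains. That rises differed upward and falls downward is therefore partly built in.

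The X-linked gene Xist, outside the autosomal comparison, read 6.44 and 6.01 on the epiblast arrays and 5.04 and 4.62 on the arrays of the male-labelled EpiLCs. The difference was -1.39 (limma adjusted p = 0.00891). The Y-linked gene Eif2s3y read 8.90 and 8.94 in epiblast and 9.24 and 9.30 in EpiLCs. The labels give the epiblast's sex as unknown.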

How the results depend on the processing

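No called gene among the 120 named changed sign under another scaling, filter or fit, except that with the mean of a gene's probe sets Nid1 changed from -1.62 to 0.14 and Tap1 from 1.54 to 0.00. The counts of 499 higher and 205 lower genes became 229 and 83 in a fit of only the 10 earlier arrays, 52 and 25 with only the 4 arrays compared (fewer samples), 974 and 447 with no fold limit, and 109 lower at an adjusted p under 0.01. Leaving out single arrays gave 332 to 538 higher and 127 to 238 lower. The difference of the contrasts, 517 and 336, became 120 and 80 with the 10 earlier arrays, 70 and 44 with the arrays compared, 253 and 170 at an adjusted p under 0.01, and 302 to 673 and 224 to 385 without single arrays. The germ cell contrast, 577 and 503, became 1031 and 790 with no fold limit, 323 lower with the 10 earlier arrays, and 503 to 648 and 319 to 616 without single arrays. With the probe set of the highest group mean, chosen after seeing the data, the counts were 524 and 229, and Afp and Elf5 became called at -4.80 and -7.37. The replicate block gave 501 higher and 212 lower in the EpiLC comparison. Deviations of same-numbered arrays correlated at 0.283, and the labels link the 2 pairs only by a number. Same-numbered EpiLC and epiblast arrays correlated at r = 0.9666 for replicate 1 and 0.958 for replicate 2. EpiLC and epiblast arrays of unlike number correlated at 0.9545 and 0.9546. Whether same-numbered arrays shared a batch was not tested. Median centring moved the median of all genes from 0.052 to 0.085. Of the 120 named genes, 43 lost a call with the 10 earlier arrays and 60 with the arrays compared, 18 to 30 without any 1 of the 4 arrays. Some of the 120, such as Pou5f1, Nanog and Cdh1 of the fixed set, were never called and could not lose a call. Signal near background limits the size of differences of dim genes.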

Other observations

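Several of the largest rises belong to no list described above. Mymx, a microprotein of muscle cell fusion, read 6.70 and 7.19 in EpiLCs and 3.26 and 2.25 in epiblast, a difference of 4.19 (SE 0.46), and was 5.37 in the germ cell contrast. Tnnc2, fast skeletal troponin C, read 6.62 and 7.58 against 4.08 and 3.31. Calcoco2, an autophagy receptor, read 5.98 and 8.81 against 3.49 and 4.22, with EpiLC replicates far apart, and differed by 4.37 in the germ cell contrast. Sox1, a neural factor, read 5.04 and 4.73 against 1.93 and 1.45, a call lost with the mean of its probe sets. It was the 1 call among 15 tested genes of a neural and anterior list with a median of -0.22. Psmb8, an immunoproteasome subunit, read 5.87 and 4.48 in EpiLCs and 7.90 and 8.24 in epiblast and differed by -2.90 (SE 0.54), whereas Tap1, the neighbouring peptide transporter gene, rose by 1.54 on its brightest probe set. Both are from an interferon and antigen presentation list. Of its 22 tested genes 2 rose and 1 fell, with a median of 0.07.

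Of 514 X-linked genes tested, 10 were higher and 18 lower in EpiLCs. Kdm5d, on the Y chromosome, read 5.22 and 3.75 in EpiLCs and 6.91 and 5.56 in epiblast.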
